A study of Mus musculus with 8 samples.

Results

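Integrin subunit genes were examined in bone marrow derived mast cells (BMMCs), the mast cells that grow out when bone marrow is kept in the cytokine IL-3. The 10 members were the genes for the alpha chains Itga2, Itga2b, Itga4, Itga5, Itgal and Itgam and the beta chains Itgb1, Itgb2, Itgb3 and Itgb7, found by their symbols among the 56748 gene IDs of the count tables. A further 17 integrin subunit genes were read beside them. The 8 libraries were made from the poly-A RNA of unstimulated cultures from 4 mice. The study's methods name C57BL/6 mice as the source of such cultures, at an age in weeks that counts as young adult. In the Mettl3-RNP group (genotype label Mettl3 KO, 4 libraries) the cells had been electroporated with ribonucleoproteins (RNPs) of Cas9 and guide RNAs against Mettl3, the enzyme that places the mRNA mark N6-methyladenosine (m6A). In the Pulsed group (genotype label Mettl3 WT, 4 libraries) the cells had received the electric pulse without RNP, so a Cas9 complex with unrelated guides was not part of this comparison. The edited cultures were not sorted and, by the study's methods, still held untargeted cells.

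An integrin is a receptor at the cell surface made of an alpha and a beta chain, and a chain without a partner is generally kept inside the cell. The alpha chain largely sets what is bound, and the short cytoplasmic tail of the beta chain is where talin and kindlin attach to switch the receptor on. Mast cell progenitors use alpha4 beta7 to enter the intestine and lung, mature mast cells hold on to fibronectin and other matrix proteins, and the beta2 integrins are the receptors that leukocytes use to adhere to ICAMs on endothelium. The chain Itga2b is best known from platelets, where it pairs with Itgb3 as the fibrinogen receptor, but it is also made by haematopoietic progenitors and cultured mast cells.

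Libraries held 32643260 to 45324826 counts, and expression is given as CPM, counts scaled to a library of 1e+06, after TMM correction of the library sizes for differences in composition. Mettl3 itself was 8.89 ± 3.05 CPM (SD, n = 4) in Mettl3-RNP and 22.0 ± 7.29 CPM (SD, n = 4) in Pulsed libraries and was lower in 4 of 4 pairs of same-numbered libraries. Pairs were kept as a block in the edgeR quasi-likelihood fit, in which Mettl3 had a log2 fold change of -1.30 (SE 0.109, adjusted p = 0.00543). Exons of Mettl3 share 2308 bases with those of Tox4 on the opposite strand. Whether the counting used strand is not given in the sources used here. All of the 10 mast cell markers listed averaged at least 1 CPM, and Kit, the receptor for stem cell factor, lay between 3074 and 5042 CPM. All of these 10 were tested and 1, the mast cell protease Cpa3, passed, against 3.74% of all tested genes called in either direction. Cpa3 fell (log2 fold change -0.37, SE 0.070, adjusted p = 0.0328, edgeR), with adjusted p-values of 0.159, 0.0710 and 0.109 without replicates 2, 3 and 4 in turn. Of 9 neutrophil markers, S100a8, S100a9, Elane and Camp were at 0 in every library, Ly6g, Mpo, Ltf and Ngp reached at most 8 counts, and Mmp8 had 3 to 36 counts (0.0855 to 0.986 CPM) and did not pass the test.

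Among members averaging at least 1 CPM, Itgb3 had the largest absolute log2 fold change, though it did not pass the test. Itgb7 was the most abundant beta chain. The upstream sequences of these 2 genes are shown. Each is the 250 bases before the start of the gene's canonical transcript, read from GRCm39 on the strand of the gene, and neither window holds annotated exon bases. For Itgb3 it is chr11:104498576-104498825 on the plus strand, and for Itgb7 it is chr15:102140380-102140629 on the minus strand. Capitals mark matches on either strand to 8 short motifs, which were the erythroid and mast cell GATA factor site written as AGATAA or as TGATAA, the ETS factor site AGGAAG, the E-boxes CACGTG and also CATGTG that MITF can bind, the RUNX site TGTGGT, the SP1 box GGGCGG and the box TATAAA.
Itgb3: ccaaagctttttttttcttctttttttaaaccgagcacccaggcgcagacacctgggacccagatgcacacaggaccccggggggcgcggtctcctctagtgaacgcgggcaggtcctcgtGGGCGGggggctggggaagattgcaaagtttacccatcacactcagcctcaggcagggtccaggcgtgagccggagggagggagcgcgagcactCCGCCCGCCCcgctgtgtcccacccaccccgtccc
Itgb7: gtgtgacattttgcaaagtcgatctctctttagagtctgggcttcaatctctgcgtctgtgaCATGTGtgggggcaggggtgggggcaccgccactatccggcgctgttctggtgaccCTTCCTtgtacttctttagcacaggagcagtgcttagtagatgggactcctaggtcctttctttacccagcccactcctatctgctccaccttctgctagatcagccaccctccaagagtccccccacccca
The capitals of Itgb3 are 3 SP1 boxes, 1 as GGGCGG on the gene's strand and 2 as overlapping copies of its reverse complement CCGCCC nearer to the start. A match to GGGCGG was present in 36.4% of the 21630 upstream windows of this length. The capitals of Itgb7 are CATGTG, found in 10.4% of all windows, and CTTCCT, the reverse complement of the ETS motif, found in 28.9%. The window of Itgb2 held both E-boxes, CATGTG and CACGTG (6.29% of all windows). That of Itgal held AGATAA (9.64% of all windows) and CTTCCT, and those of Itga2 and Itga4 held none of the 8 motifs. A match describes the letters of a window and was not tested for binding.

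In the GRCm39 annotation several members share a chromosome. Itgal (chr7:126895432-126934320) and Itgam (chr7:127661808-127717753) are both on the plus strand, and Itgam lies near the genes of the other beta2 partners Itgax and Itgad. Itga2b (chr11:102341397-102360955, minus strand) and its partner Itgb3 (chr11:104498826-104561302, plus strand) share a chromosome, as do Itgb7 (chr15:102124429-102140379) and Itga5 (chr15:103252713-103275270), both on the minus strand. The others are Itga2 (chr13:114969617-115068636, minus strand), Itga4 (chr2:79085660-79163467, plus strand), Itgb1 (chr8:129411876-129460618, plus strand) and Itgb2 (chr10:77366086-77401542, plus strand). Exons of Itga2b share 845 bases with Gm74331 and those of Itga2 share 444 bases with Mocs2, both on the opposite strand, and the counts of such genes carry that uncertainty.

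Levels of different genes were compared as CPM per kb of canonical transcript, and on this scale the members ran from abundant to barely detected. Itga2b was the highest at 285 ± 18.2 CPM per kb (SD, n = 4) in Pulsed cells, rank 202 of the 14942 genes tested. Itgb7 followed at 210 ± 32.9 CPM per kb, rank 257. They stood at percentiles 98.65 and 98.28 of the tested genes, and together they made up most of the members' summed level. The share of Itga2b in that sum was 48.1% to 56.4% and that of Itgb7 30.4% to 40.6% across the 8 libraries.

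Below them came Itgb1 at 39.6 ± 6.47 CPM per kb in Pulsed cells, then Itgb2 at 12.6 ± 3.14, Itga5 at 12.4 ± 4.29 and Itgb3 at 4.41 ± 2.96 (SD, n = 4 each). Itga4 stood at 0.940 ± 0.645, Itgal at 0.164 ± 0.0981 and Itga2 at 0.0765 ± 0.0280 CPM per kb. The order was the same in 8 of 8 libraries for the neighbours Itga2b over Itgb7, Itgb7 over Itgb1, Itgb1 over Itgb2, Itga5 over Itgb3 and Itga4 over Itgal. Itgb2 exceeded Itga5 in only 4 of 8 libraries and Itgb3 exceeded Itga4 in 5 of 8, so these neighbours were not separated beyond their spread. Itgal exceeded Itga2 in 7 of 8.

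**Figure D1:**
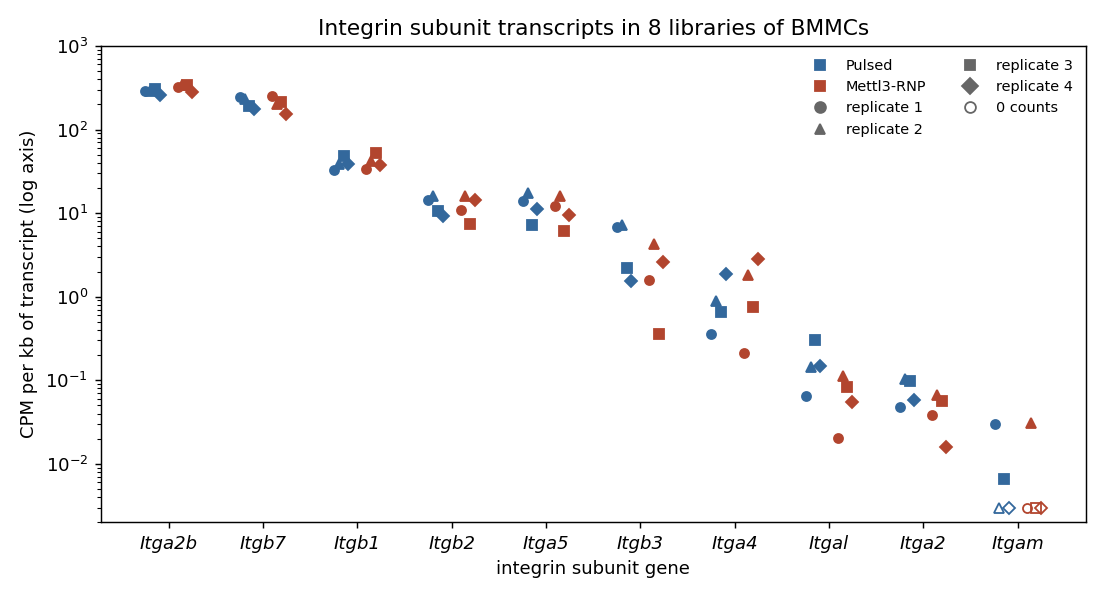
Levels of the 10 integrin subunits in each library, as CPM per kb of canonical transcript on a log axis, ordered by the Pulsed mean. Blue symbols are Pulsed and red symbols Mettl3-RNP libraries, the symbol shape gives the replicate number, and open symbols at the bottom stand for 0 counts. Itga2b and Itgb7 lie above 100 CPM per kb in every library, while the spread within a group widens towards the low genes.

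Transcripts of alpha and beta chains that pair were not present at equal levels. Itgb7 pairs with Itga4 and Itgae, whose summed level was 0.984 ± 0.632 CPM per kb (SD, n = 4) in Pulsed cells, so that Itgb7 exceeded its partners by 54.1-fold in Mettl3-RNP 4 to 1009-fold in Mettl3-RNP 1. Itgb2 exceeded the sum of Itgal, Itgam, Itgax and Itgad (0.197 ± 0.105 CPM per kb in Pulsed cells) by 30.2-fold to 264.5-fold, with Itgam at its deposited counts, whose limit is given below with that gene. The opposite held for Itgb3, since its partners Itga2b and Itgav together exceeded it by 41.1-fold in Pulsed 2 to 981.9-fold in Mettl3-RNP 3. Itgb1 was closest to balance and stood 1.38-fold to 2.90-fold above the sum of its 12 alpha partners. These are transcript levels with 1 length per gene, and protein at the cell surface was not measured.

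To ask whether these transcripts depend on Mettl3, the groups were compared in the edgeR fit over all 14942 tested genes with Benjamini-Hochberg adjustment. Of the 10 members, 9 passed the filter on low counts and 0 had an adjusted p of 0.05 or less, against 3.74% of all tested genes. With the added limit of a 1.5-fold change the count was also 0, against 2.06%. The count was also 0 of 9 in limma-voom and 0 of 7 in DESeq2, which gave no adjusted p for Itga2 and Itgal. At an unadjusted p under 0.05 there were 3 members (Itga2b, Itga5 and Itgal) of 9, against 22.5% of all tested genes. A sign shared by 4 of 4 pairs was seen in 4 members, higher for Itga2b and lower for Itga2, Itga5 and Itgal, against 31.6%. The 2 groups overlapped for every tested member, whereas 3.23% of all tested genes had groups that did not overlap. The median log2 fold change of the 9 was -0.08, beside -0.0013 over all tested genes. Fitted higher in Mettl3-RNP cells were 3 of the 9, against 49.81% of all tested genes. A smaller number of cells of a type and less RNA per cell cannot be told apart in these bulk samples.

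**Figure D2:**
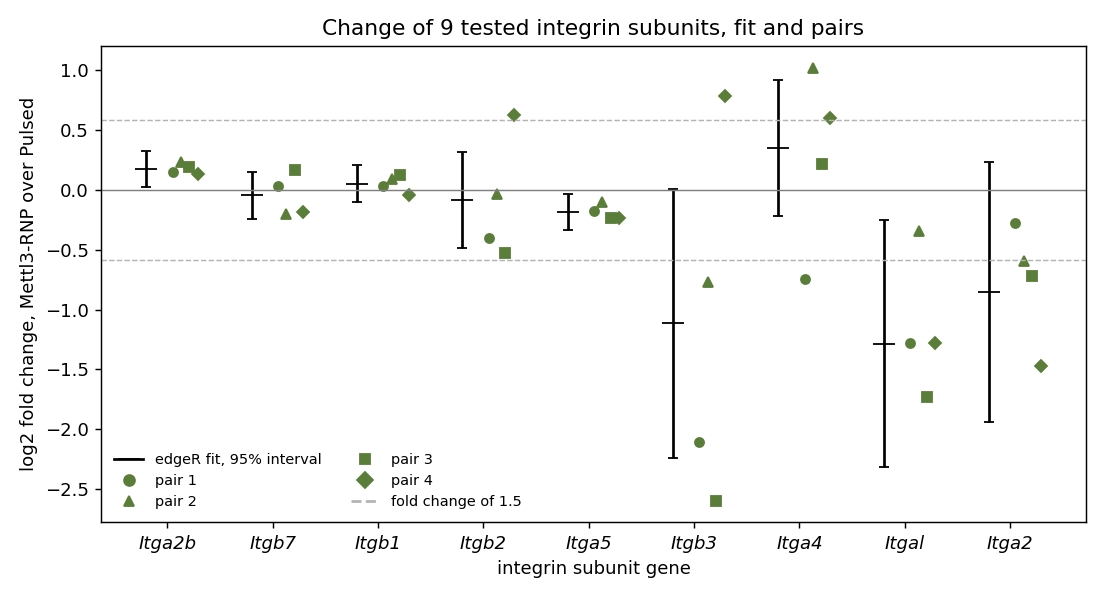
Log2 fold change of the 9 tested members, Mettl3-RNP over Pulsed. The black bar is the edgeR estimate with its 95% interval, the 4 green symbols are the paired log2 differences, and dashed lines mark a 1.5-fold change. Itga2b, Itgb7, Itgb1 and Itga5 have narrow intervals near 0, and those of Itgb3, Itgal and Itga2 are wide.

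The platelet-type pair Itga2b and Itgb3 were estimated with unequal precision, since Itga2b had the smallest standard error of the 9 members and Itgb3 the largest. Itga2b stood at 1976, 2090, 2120 and 1753 CPM in Mettl3-RNP 1 to 4 and at 1787, 1778, 1861 and 1597 CPM in Pulsed 1 to 4. Each Mettl3-RNP library was above the Pulsed library of its number, but Mettl3-RNP 4 lay below 3 of the Pulsed libraries, and the groups overlapped. The log2 fold change was 0.18 (SE 0.065, 95% interval 0.02 to 0.33), and it did not pass the test (adjusted p = 0.163, edgeR). The interval excludes a 1.5-fold change in either direction.

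Itgb3, the beta chain of the fibrinogen and vitronectin receptors, stood at 9.04, 24.4, 2.07 and 15.2 CPM in Mettl3-RNP 1 to 4 and at 39.0, 41.5, 12.8 and 8.79 CPM in Pulsed 1 to 4. It was lower in pairs 1, 2 and 3, by log2 differences of -2.10, -0.77 and -2.60, and higher in pair 4, by 0.78. The log2 fold change of -1.12 (SE 0.485, 95% interval -2.24 to 0.0053) had an unadjusted p of 0.0509 and an adjusted p of 0.225 by edgeR. The value turned on single replicates. Without replicate 4 edgeR gave -1.74 with an adjusted p of 0.00253, and without replicates 1 and 3 in turn it gave -0.79 and -0.73 with adjusted p-values of 0.431 and 0.399. When every gene with at least 1 count entered the fit the adjusted p was 7.69e-11, with 101000 degrees of freedom in place of 7.86, so that the spread of Itgb3 between its own pairs had almost no weight there. No annotated gene overlaps the exons of Itgb3.

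Within a library, Itga2b exceeded Itgb3 by 40.2-fold per kb in Pulsed 2 to 959.5-fold in Mettl3-RNP 3. The log2 ratio was higher in Mettl3-RNP cells in 3 of 4 pairs, with a mean difference of 1.35 ± 1.54 (SD, n = 4). Flipping the signs of the paired differences in an exact two-sided permutation test gave p = 0.25, and 4 pairs allow no p below 0.125.

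**Figure D3:**
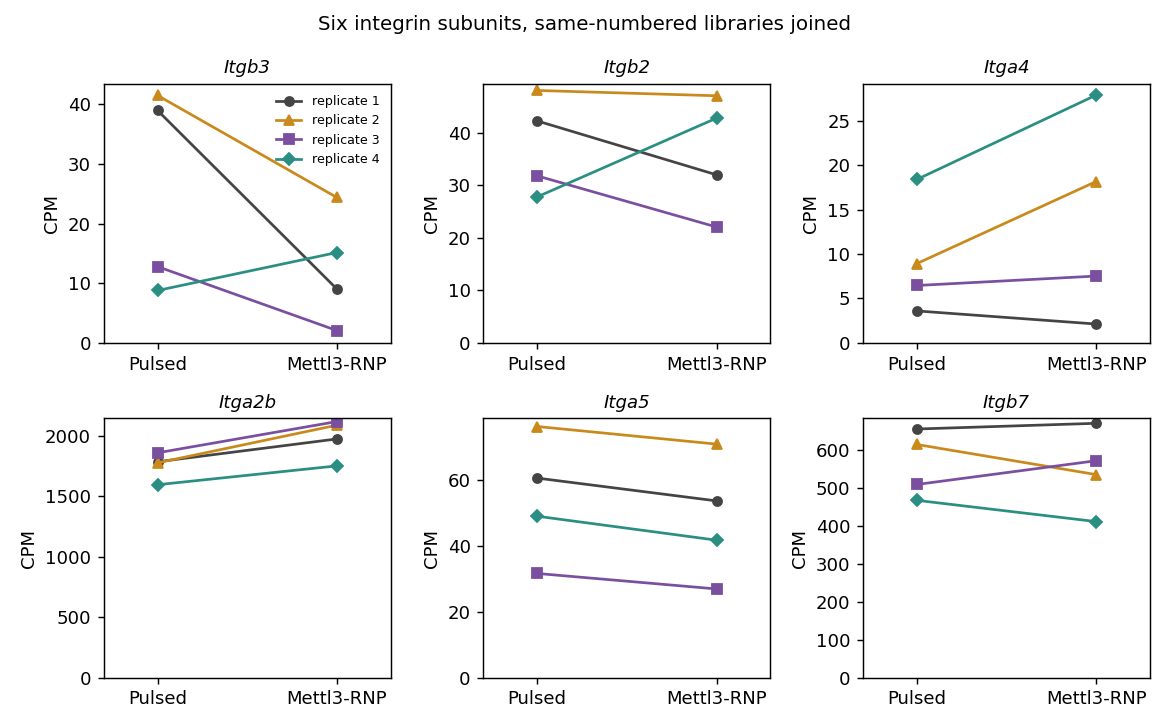
Expression of 6 integrin subunits in CPM, with the Pulsed library on the left joined to the Mettl3-RNP library of the same number on the right, and a linear axis from 0 in each panel. Itgb3 goes from 39.0 to 9.04 CPM in pair 1 and from 8.79 to 15.2 CPM in pair 4, while the 4 lines of Itga2b all slope slightly up and those of Itga5 slightly down.

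The gut and lung homing pair Itgb7 and Itga4 differed in how far replicates of a group spread. Itgb7 stood at 671.5, 536.1, 572.7 and 412.0 CPM in Mettl3-RNP 1 to 4 and at 656.4, 615.6, 510.0 and 468.1 CPM in Pulsed 1 to 4. It was higher in 2 pairs and lower in 2, with a log2 fold change of -0.05 (SE 0.084, 95% interval -0.24 to 0.15, adjusted p = 0.800, edgeR), an interval that excludes a 1.5-fold change. In both groups replicate 1 was highest and replicate 4 lowest.

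Itga4, the alpha chain that binds VCAM1 and, with Itgb7, MADCAM1, stood at 2.13, 18.2, 7.53 and 27.9 CPM in Mettl3-RNP 1 to 4 and at 3.60, 8.93, 6.46 and 18.4 CPM in Pulsed 1 to 4. Replicate 4 was highest and replicate 1 lowest in both groups, with a 13.1-fold range within Mettl3-RNP and a 5.11-fold range within Pulsed libraries. Of the variance of its log2 CPM, 90.8% lay between replicate numbers and 1.37% between groups. The log2 fold change of 0.35 (SE 0.245, 95% interval -0.22 to 0.92) did not pass the test (adjusted p = 0.455, edgeR). It moved from 0.083 without replicate 2 to 0.59 without replicate 1, past the test in neither. A stretch of 3481 of its exon bases overlaps exons of Cerkl on the opposite strand, and whether the counting used strand is not given in the sources used here.

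The matrix receptors share the chain Itgb1, which stood at 166.9, 208.3, 263.2 and 187.4 CPM in Mettl3-RNP 1 to 4 and at 163.7, 195.2, 242.1 and 192.9 CPM in Pulsed 1 to 4. Replicate 3 was the highest and replicate 1 the lowest in both groups, and 96.8% of the variance of its log2 CPM lay between replicate numbers. Its log2 fold change was 0.05 (SE 0.066, 95% interval -0.10 to 0.20, adjusted p = 0.713, edgeR). The difference between the groups was thus smaller than the spread between the mice.

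Itga5, which forms the fibronectin receptor with Itgb1, stood at 53.6, 70.9, 26.9 and 41.7 CPM in Mettl3-RNP 1 to 4 and at 60.6, 76.2, 31.6 and 49.0 CPM in Pulsed 1 to 4. It was lower in 4 of 4 pairs by a narrow range of log2 differences, from -0.10 to -0.23, while replicate 2 stood highest and replicate 3 lowest in both groups. The log2 fold change of -0.18 (SE 0.066, 95% interval -0.34 to -0.03) did not pass the test (adjusted p = 0.149, edgeR). Its variance, like that of Itgb1, lay mostly between replicate numbers (96.3%).

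Itga2, the collagen-binding partner of Itgb1, was near the limit of detection, with 10, 20, 12 and 4 counts in Mettl3-RNP 1 to 4 and 12, 28, 28 and 15 counts in Pulsed 1 to 4. In CPM this was 0.114 to 0.467 in Mettl3-RNP and 0.338 to 0.731 in Pulsed libraries, lower in 4 of 4 pairs but with overlapping groups. Its log2 fold change was -0.85 (SE 0.468, 95% interval -1.94 to 0.23, adjusted p = 0.333, edgeR). At this depth the interval covers both a large loss and no change. The 3 basophil markers listed were read beside it, and 0 of them passed the test, against 3.74% of all tested genes. Mcpt8, a basophil protease, was 0.511 to 2.51 CPM in Mettl3-RNP and 0.675 to 4.03 CPM in Pulsed libraries and, like Itga2, lay lower in each of the 4 pairs, with a log2 fold change of -0.42 (adjusted p = 0.268, edgeR). The basophil protease Prss34 also lay lower in each pair, with a log2 fold change of -0.68 (adjusted p = 0.299, edgeR), whereas the receptor Cd200r3, at 499.1 to 819.1 CPM, was higher in 4 of 4 (log2 fold change 0.25, adjusted p = 0.151, edgeR). The part of basophils in the level of Itga2 was not tested.

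The leukocyte chain Itgb2 stood at 32.0, 47.0, 22.0 and 42.8 CPM in Mettl3-RNP 1 to 4 and at 42.2, 48.0, 31.8 and 27.8 CPM in Pulsed 1 to 4. It was lower in pairs 1, 2 and 3 and higher in pair 4, the same pattern of signs as in Itgb3, by log2 differences of -0.40, -0.03, -0.53 and 0.62. Its log2 fold change was -0.08 (SE 0.174, 95% interval -0.48 to 0.32, adjusted p = 0.826, edgeR).

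Itgal, which with Itgb2 forms LFA-1, the main ICAM receptor of lymphocytes, had 4, 25, 13 and 10 counts in Mettl3-RNP 1 to 4 and 12, 29, 63 and 28 counts in Pulsed 1 to 4. This was 0.108, 0.584, 0.435 and 0.285 CPM against 0.338, 0.757, 1.57 and 0.767 CPM. It was lower in 4 of 4 pairs, with a log2 fold change of -1.28 (SE 0.445, 95% interval -2.31 to -0.26) that did not pass the test (adjusted p = 0.139, edgeR). Mettl3-RNP 2 exceeded Pulsed 1, so the groups overlapped.

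Itgam, the alpha chain of Mac-1 on macrophages and neutrophils, had 0, 5, 0 and 0 counts in Mettl3-RNP 1 to 4 and 4, 0, 1 and 0 counts in Pulsed 1 to 4 and was not tested. A count of 0 allows a level of up to 0.0783 to 0.100 CPM (3 counts) in the 5 libraries without a count, by counting error only. However, 3450 of the 5118 bases of its exons overlap the readthrough gene Gm49368 on the same strand, which itself held 0 to 9 counts. The other 1668 bases lie outside that gene, but only 294 of them belong to the canonical transcript of 3744 bases. How reads shared by both genes were treated is not given in the sources used here, so the level of Itgam is uncertain.

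Of the remaining ratios between chains that share a partner, none passed the same exact permutation test over the 4 pairs. The log2 ratio of Itgb7 to Itgb1 differed by -0.096 ± 0.154 (SD, n = 4, p = 0.5) and that of Itga4 to Itga5 by 0.46 ± 0.75 (p = 0.375, exact). The log2 ratio of Itga2 to Itga5 was lower in 4 of 4 pairs, by -0.72 ± 0.63 (SD, n = 4), with p = 0.125, the smallest the exact test allows here. Adjusted over the 4 ratios by Benjamini-Hochberg, every p was 0.5. The ratio of Itgal to Itgam could not be computed because of the zeros.

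The genes whose log2 CPM ran most like that of Itgb3 over the 8 libraries were St3gal5 (a ganglioside synthase, Pearson r = 0.966), Fkbp5 (a glucocorticoid-induced chaperone, 0.956), Shisa5 (0.955), Ankrd35 (0.928) and the member Itgb2 (0.926). They ranked first among the 11952 genes averaging 1 CPM or more. The 8 libraries come from 4 mice and share replicate numbers, so these values describe likeness between libraries only. Of the 4 genes that are no members, none passed the test between the groups (adjusted p from 0.0905 to 0.763, edgeR).

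GGACT is a common core sequence of m6A sites, and its number per kb of canonical transcript was counted on the sense strand. The median over 12056 tested protein-coding genes was 1.04 per kb. Itgb2 had 2.69 per kb (percentile 97.1), Itgal 2.10 (91.9) and Itga5 1.83 (86.6), whereas Itgb1 had 0.399 (11.9). Itga4 at 1.00 (47.6), Itga2 at 0.844 (36.9) and Itgam at 0.801 (34.2) also lay below the median. The abundant transcripts Itga2b and Itgb7 had 1.46 and 1.12 per kb, and Itgb3 had 1.56. Methylation was not measured in these libraries, and a GGACT is not a methylated site by itself.

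Of the 17 other integrin subunits, 9 were tested and 0 passed an adjusted p of 0.05 in the edgeR fit, against 3.74% of all tested genes, and 4 had an unadjusted p under 0.05, against 22.5%. The count past the adjusted p was 0 in limma-voom and 1, Itga9, in DESeq2. Their median log2 fold change was 0.26, and 7 of the 9 were fitted higher, against 49.81% of all tested genes. The groups did not overlap for Itga9 and Itgav, 2 of the 9, against 3.23% of all tested genes.

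Itga9, a partner of Itgb1 that binds tenascin C, osteopontin and VCAM1, was 13.0 ± 1.95 CPM (SD, n = 4) in Mettl3-RNP and 7.51 ± 2.01 CPM in Pulsed libraries. It was higher in 4 of 4 pairs, with a log2 fold change of 0.81 (SE 0.196, adjusted p = 0.0649, edgeR). The adjusted p was 0.00187 in DESeq2 and 0.0345 without replicate 3, so whether Itga9 passed depended on the fit. Itgav, which pairs with Itgb1 and Itgb3, was 58.2 ± 1.49 CPM in Mettl3-RNP and 48.9 ± 5.03 CPM in Pulsed libraries (SD, n = 4), higher in 4 of 4 pairs with a log2 fold change of 0.26 (SE 0.084, adjusted p = 0.122, edgeR). The laminin receptor chain Itga6 was at 5.06 and 3.45 CPM, Itgb6 at 2.48 and 1.71 CPM and Itga10 at 1.15 and 1.02 CPM (means of Mettl3-RNP and Pulsed), with adjusted p-values of 0.216, 0.207 and 0.856 by edgeR. Exons of Itga10 overlap another gene on the same strand, so its level is uncertain.

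**Figure D4:**
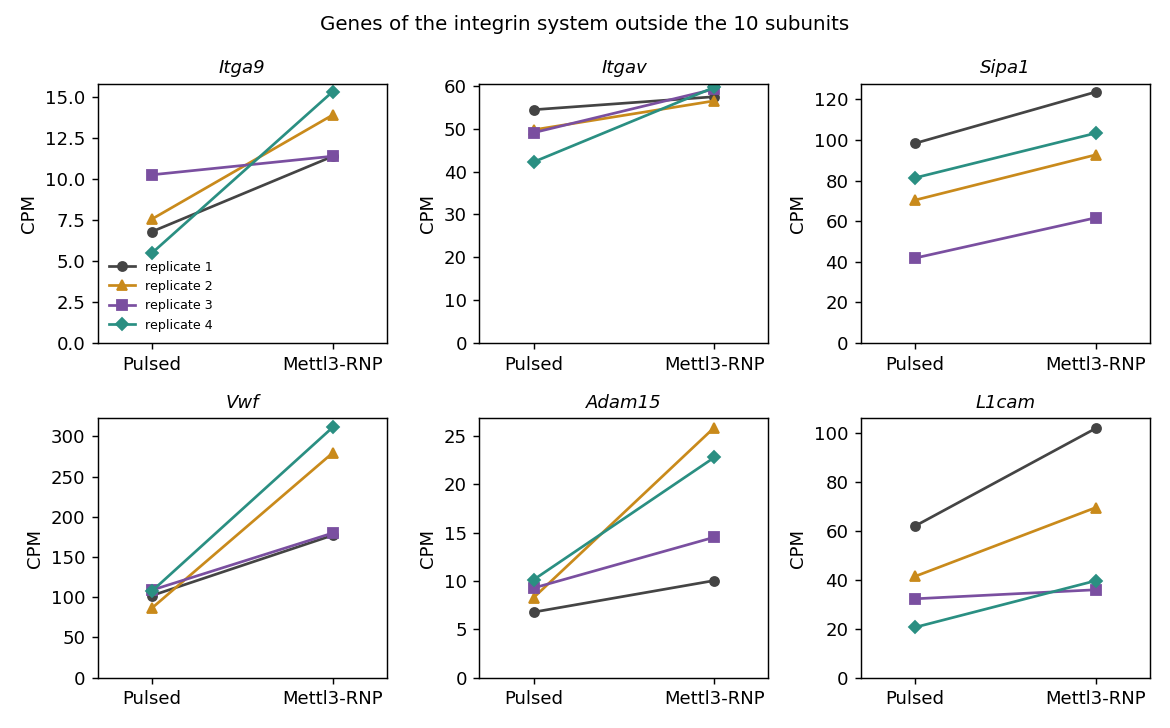
Expression in CPM of 6 genes of the integrin system that are not among the 10 subunits, with the Pulsed library joined to the Mettl3-RNP library of the same number and a linear axis from 0 in each panel. All lines slope upward. The ligand Vwf goes from 86.7 to 108.9 CPM in Pulsed to 177.0 to 311.2 CPM in Mettl3-RNP libraries, with no overlap.

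The list of genes that switch integrins on or off held talins, kindlins, Rap1 with its effectors, and inhibitors. Of its 22 genes 19 averaged at least 1 CPM over the 8 libraries and 20 were tested, 1 passed and was higher and 0 passed and were lower, against 3.74% of all tested genes called in either direction. The median log2 fold change of the 20 was 0.07. Talin (Tln1) was 987.1 ± 74.2 CPM in Mettl3-RNP and 1020 ± 36.5 CPM in Pulsed libraries (SD, n = 4), and the haematopoietic kindlin Fermt3 was 549.8 ± 26.4 and 590.8 ± 42.3 CPM, with adjusted p-values of 0.728 and 0.403 by edgeR. The gene that passed was Sipa1, a GTPase-activating protein that switches off Rap1, the small GTPase through which signals reach talin. Sipa1 rose from 73.0 ± 23.8 to 95.4 ± 25.9 CPM (SD, n = 4), in 4 of 4 pairs, with a log2 fold change of 0.41 (SE 0.070, adjusted p = 0.0278, edgeR). Leaving out any replicate number ended this call, with adjusted p-values of 0.118, 0.128, 0.0539 and 0.100 without numbers 1 to 4.

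Of 25 genes for integrin ligands 14 were tested, and 3 rose and 0 fell at an adjusted p of 0.05 by edgeR, against 3.74% of all tested genes called in either direction, with a median log2 fold change of 0.43. Vwf, von Willebrand factor, a ligand of the Itga2b and Itgb3 pair, rose from 101.4 ± 10.3 to 236.9 ± 68.7 CPM (SD, n = 4), with a log2 fold change of 1.18 (SE 0.169, adjusted p = 0.0181, edgeR). Adam15, a disintegrin, rose from 8.62 ± 1.44 to 18.3 ± 7.30 CPM (1.01, SE 0.182, adjusted p = 0.0309, edgeR). L1cam, an adhesion molecule, rose from 39.1 ± 17.5 to 61.8 ± 30.8 CPM (0.64, SE 0.122, adjusted p = 0.0340, edgeR). Each of the 3 was higher in 4 of 4 pairs, but without replicate 2 none passed, with adjusted p-values of 0.0673, 0.103 and 0.146. L1cam also missed the threshold without replicate 1 (0.0881) and without replicate 4 (0.0628). Cdh1, E-cadherin, had a log2 fold change of -0.73 (adjusted p = 0.148, edgeR) and was called lower in DESeq2 (adjusted p = 0.0498). Madcam1, Vtn, Fgb, Fgg and Thy1 were at 0 counts in every library, and of 11 other ligands with a mean below 1 CPM over the 8 libraries, 9 had their highest value in Mettl3-RNP 2, the library with the most genes detected (28483).

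Since Itga2b and Itgb3 also mark megakaryocytes, platelets and their precursors, the 10 markers listed for those cells were read beside them. Pf4, Ppbp, Gp1bb, Gp6 and Treml1 each had less than 1 CPM in every library, and Gp9 reached at most 0.936 CPM. Gp1ba was 622.6 ± 150.1 CPM in Mettl3-RNP and 493.9 ± 112.2 CPM in Pulsed libraries (SD, n = 4), higher in 4 of 4 pairs with overlapping groups, and did not pass the test (log2 fold change 0.33, SE 0.095, adjusted p = 0.0912, edgeR), although it passed in DESeq2 (adjusted p = 0.0141). Gp5 rose from 38.9 ± 18.0 to 83.5 ± 22.1 CPM (SD, n = 4), or 1.15 on the log2 scale (SE 0.194, adjusted p = 0.0272, edgeR), and Vwf rose as above. Gp5 missed the threshold without replicate 2 (adjusted p = 0.113, edgeR). Of the 10 markers 4 were tested and 2 passed, both higher, against 3.74% of all tested genes called in either direction. The summed level of the list was 812.5 to 1250 CPM in Mettl3-RNP and 519.7 to 821.5 CPM in Pulsed libraries. The 10 macrophage markers, cells that carry Itgam, Itgal and Itgb2, summed to 140.9 to 406.1 CPM in Mettl3-RNP and 66.9 to 389.3 CPM in Pulsed libraries, nearly all of it Cx3cr1 (61.1 to 403.2 CPM). Csf1r, Mrc1, C1qa and C1qb were each below 1 CPM, Vsig4 was at 0, and Adgre1 fell from 2.53 ± 0.444 to 1.18 ± 0.370 CPM (log2 fold change -1.13, SE 0.235, adjusted p = 0.0435, edgeR). Leaving out any replicate number ended that call (adjusted p of 0.0906 or more, edgeR). Adgre1 was the 1 marker called of 5 macrophage markers tested, against 3.74% of all tested genes called in either direction. The part of these cells in the integrin levels was not tested.

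The 10 immediate early genes listed, which cells switch on within minutes of a stimulus, differed widely between replicate numbers in cells labelled as the same condition. Their summed level ran from 289.6 to 22830 CPM in Mettl3-RNP and from 139.7 to 20180 CPM in Pulsed libraries, highest in replicate 3 and lowest in replicate 4 of both groups. Itga2b was likewise highest in replicate 3 and lowest in replicate 4 of both groups. Itgb1 was highest and Itga5 lowest in replicate 3, and Itgb7 was lowest and Itga4 highest in replicate 4, in both groups. Itgb2 and Itgb3 were highest in replicate 2 of both groups, but lowest in replicate 3 of Mettl3-RNP and in replicate 4 of Pulsed. The part of the state of the cultures in these levels was not tested.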

How the data were processed

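The authors enriched poly-A RNA, checked paired-end reads with FastQC 0.11.9, aligned them to GRCm39 with HISAT2 2.2.1 and assigned them to Ensembl genes with featureCounts 2.0.1. The authors deposited raw counts, whole numbers without normalization, and the study's batch correction, whose batch is not named, is not visible in them. Strand and multimapping settings are not given in the sources used here. GENCODE vM39 named 56017 of 56748 IDs (98.712%), and unnamed IDs held at most 0.113% of a library's counts. Genes were kept by filterByExpr (a count of about 10 in 4 libraries), scaled by TMM and tested in edgeR 4.0.16 (R 4.3.3, glmQLFit and glmQLFTest) with the replicate number as a block. P-values were adjusted by Benjamini-Hochberg over 14942 genes. The paired log2 differences used a prior count of 2, and standard errors come from the test statistic.

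By the series text the cells came from 4 mice, so the numbers 1 to 4 were taken to stand for mice. Deviations from group means of same-numbered libraries correlated at 0.825, 0.488, 0.881 and 0.766 (pairs 1 to 4, 11990 genes), and those of different numbers at most at 0.188. The chi-square per degree of freedom between libraries of the same group was at least 52.6, so none was a repeat of another. Molecules were not tagged, so count floors cover counting error only.

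Members and lists were chosen with earlier results of these data known. Named were all members, Mettl3, other integrin subunits with a mean of at least 1 CPM, genes of the integrin lists with an adjusted p of 0.05 or less, the 5 genes most like the member of largest fold change with at least 1 CPM, and the listed cell markers, of which 1 is not reported here. Tln1, Fermt3, Cdh1 and the immediate early genes were added after their values had been seen. Alternatives were no block, DESeq2 1.42.0, limma-voom (limma 3.58.1), other scalings, other filters and leaving out each replicate. Promoter windows and GGACT counts came from the canonical transcripts and genome of GRCm39.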

Additional observations from a re-analysis of the deposited data

Results flagged for a closer look

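Mettl3 in Pulsed 3 stood at 11.2 CPM, far from the other Pulsed libraries, which lay between 24.5 and 26.5 CPM. Itgam in Mettl3-RNP 2 stood at 0.117 CPM, from 5 counts, while the other Mettl3-RNP libraries were at 0. These 2 were the values farthest from their group among 40 groups of 4 libraries examined by Dixon's criterion, which by chance picks about 2 of 40. Beside values that are all 0, any count gives the largest ratio of that criterion, so the flag of Itgam reflects counts near 0.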

How the results depend on the processing

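Without the replicate block Mettl3 had a log2 fold change of -1.307 (adjusted p = 0.744, edgeR), 0 integrin activation genes and 0 integrin ligands passed, and the members called stayed at 0, while Cpa3, Gp5 and Adgre1 missed the threshold (adjusted p = 0.9993, 0.866 and 0.843), as Cpa3 did with at least 10 counts in every library (0.0583). Dropping the block raised the biological coefficient of variation from 0.159 to 0.407. Of the 10 members, 1 (Itgb3, lower) passed when every gene with at least 1 count was tested, with and without the 1.5-fold limit, and from 0 to 1 passed when a replicate was left out (Itgb3 without replicate 4). Of the other integrin subunits 1 (Itga9) passed in DESeq2, with every gene with at least 1 count, and with at least 10 counts in every library, and from 0 to 1 when a replicate was left out (Itga9 without replicate 3). Of the activation genes 2 passed with every gene with at least 1 count (Sipa1 and Rasgrp2) and 0 without any replicate 1 to 4. Of the ligands 4 passed in DESeq2 and with every gene with at least 1 count, 3 higher and 1 lower (Cdh1). When a replicate was left out 0 to 3 ligands passed, with 0 without replicate 2. The platelet marker Gp1ba passed in DESeq2 (adjusted p = 0.0141). Leaving out a replicate moved the log2 fold change of Itga10 from -0.015 (without replicate 1) to 0.24, of Itgb2 from -0.31 to 0.058 (without replicate 3) and of Itgb7 from -0.12 to 0.011 (without replicate 4), so that their signs turned, none of them past the test. The fit of every gene with at least 1 count had 101000 degrees of freedom for Itgb3, against 7.86, so its calls rest on a spread shared by all genes. The log2 fold change of Itgb1 was 0.022 to 0.092 and that of Itga6 0.23 to 0.68 when a replicate was left out, and the mean log2 difference of the ratio Itga2b to Itgb3 was 0.87 to 2.02, of Itga4 to Itga5 0.23 to 0.80, of Itga2 to Itga5 -0.91 to -0.42 and of Itgb7 to Itgb1 -0.14 to -0.030. Other causes were not tested. Under DESeq2 size factors, library size alone and limma-voom the log2 fold changes of 25 genes (the 9 tested members among them) kept their direction and their side of the threshold, except that Adgre1 had an adjusted p of 0.0507 with library size alone. Cpa3, Gp5, Adgre1, Gp1ba, Tln1, Fermt3 and Cdh1 were added to these alternatives after seeing the data. DESeq2 gave no adjusted p for Itga2 and Itgal, and these 2 were not tested under the filter of at least 10 counts in every library. With 4 pairs, and 4 to 63 counts per library for Itga2 and Itgal, moderate changes of the low members could not be resolved.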
